A study of Mus musculus with 6 samples.

Results

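The genes described here encode the ligands and receptors of axon guidance: the ephrins and Eph receptors, the semaphorins with their plexin and neuropilin receptors, the Slits and Robos, and the netrins with Dcc, Neo1 and the Unc5 receptors. They were chosen by name. Every array probe whose RefSeq mRNA accession belongs to a symbol that starts with Epha, Ephb, Efna, Efnb, Sema, Plxn, Nrp1, Nrp2, Slit1 to Slit3, Robo, Ntn or Unc5, or that is Dcc or Neo1, was taken. The rule gave 95 probes of 74 genes, out of 20274 genes named on the array. Of these, 61 genes (82.4%) could be tested, because they had a probe that cleared background in both cultures of some group, against 14773 (72.9%) of all named genes. The rule itself did not use measured values, but the members were chosen with earlier results of these data known. The rule also took Unc50 and Unc5cl, which share only their first letters with the Unc5 receptors. Both are counted, and no guidance role is described for them here.

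Guidance cues are read by receptors at the cell surface and pull or push the leading edge of a cell or axon by acting on its actin skeleton. Ephrins are themselves membrane-bound, so an Eph receptor meets its ligand only where cells touch, and both sides of the contact can signal. Class 3 semaphorins are secreted and act through a neuropilin that binds the ligand and a plexin that signals, while most semaphorins of classes 4 to 7 are anchored in the membrane and bind plexins directly. Slits repel through Robo receptors. Netrins attract through Dcc or Neo1 and repel where an Unc5 receptor takes part. In the early embryo, before axons exist, the same proteins help to form boundaries between tissues and to steer migrating cells.

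The cells were mouse epiblast stem cells (EpiSCs) of strain 129/Sv, a pluripotent cell type taken from the epiblast of the embryo after implantation. The EpiSC group was kept in the condition that maintains the epiblast state. The NPC1 group spent 1 day, and the NPC2 group 2 days, in a condition for neural plate development. Each group had 2 cultures, named A and B, and all of them came from 1 seed culture, so a p-value here reflects only how far these samples spread, and that spread may be technical. RNA from every culture was labelled with Cy3 and read on a separate 1-colour Agilent array, with the 6 arrays side by side on a single slide. On each array, 58.2% to 61.1% of the spots were well above background, 0 spots were saturated, and duplicates correlated at r = 0.9963 to 0.9965 across probes, which are not independent replicates. Precision is limited by having 2 arrays per group; the standard error (SE) of a log2 change had a median of 0.074 among the guidance genes tested.

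The group labels were checked against marker genes. The neural plate markers Sox1, Sox2, Hes5 and Ncam1 rose on both days, and their summed intensity went from 1184 to 1187 in EpiSC through 2764 to 2808 in NPC1 to 7348 to 7363 in NPC2. Of the epiblast markers, Pou5f1, Fgf5 and Tdgf1 fell, while Nanog rose (log2 change 0.82 after 2 days). The 3 genes named as markers of the guidance family, Ephb1, Nrp2 and Slit1, were all higher in NPC2 than in EpiSC, but only Ephb1 was higher already in NPC1. These 3 belong to the set described here, so they do not check the labels. These are bulk cultures, in which fewer cells of a type and less RNA per cell cannot be told apart.

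The sequences just upstream of 4 genes with large changes are printed here so that the start regions behind the largest shifts can be compared. Each is the stretch of 250 bases before the transcription start, 5′ to 3′ on the gene's own strand, from RefSeq on build GRCm38.p6; the capitals mark CG dinucleotides. Such windows were found for 64 of the 74 genes. The Ephb1 window lies at chr9:102354694-102354943 on the minus strand, the Nrp2 window at chr1:62703067-62703316 on the plus strand, the Efnb1 window at chrX:99135811-99136060 on the plus strand and the Epha2 window at chr4:141300971-141301220 on the plus strand.
Ephb1: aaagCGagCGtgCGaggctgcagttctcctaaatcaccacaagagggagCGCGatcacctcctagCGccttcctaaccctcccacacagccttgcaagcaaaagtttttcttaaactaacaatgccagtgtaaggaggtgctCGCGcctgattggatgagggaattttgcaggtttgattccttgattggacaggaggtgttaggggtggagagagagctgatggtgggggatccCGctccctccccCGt
Nrp2: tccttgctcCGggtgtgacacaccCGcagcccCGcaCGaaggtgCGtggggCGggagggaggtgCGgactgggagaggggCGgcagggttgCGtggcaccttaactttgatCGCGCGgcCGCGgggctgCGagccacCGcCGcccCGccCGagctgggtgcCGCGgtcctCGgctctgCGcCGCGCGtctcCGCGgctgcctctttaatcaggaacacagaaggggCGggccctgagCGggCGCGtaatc
Efnb1: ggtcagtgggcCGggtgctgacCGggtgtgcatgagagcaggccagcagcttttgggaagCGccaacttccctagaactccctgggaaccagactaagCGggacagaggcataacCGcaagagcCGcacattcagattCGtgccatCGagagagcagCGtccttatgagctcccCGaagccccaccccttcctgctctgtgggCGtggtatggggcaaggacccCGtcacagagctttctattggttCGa
Epha2: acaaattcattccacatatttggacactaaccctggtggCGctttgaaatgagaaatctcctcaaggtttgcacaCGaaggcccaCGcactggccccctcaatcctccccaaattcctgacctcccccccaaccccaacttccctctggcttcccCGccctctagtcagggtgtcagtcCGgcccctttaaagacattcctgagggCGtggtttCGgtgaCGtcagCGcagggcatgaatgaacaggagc

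The Nrp2 window held 32 CG dinucleotides and was 72.4% G or C. The Ephb1 window held 10 (54% G or C), the Efnb1 window 13 (60%) and the Epha2 window 9 (55.6%). The median over all 32851 RefSeq windows was 6. Among the guidance genes that were at least 2-fold higher in NPC2 than in EpiSC, 17 had a window and the median was 17.5 CG dinucleotides over 18 windows, with a range from 2 to 32. The 6 windows of genes at least 2-fold lower had a median of 9, from 2 to 27, and the 56 windows of the other guidance genes had a median of 15.5. The ranges of the risen and the fallen genes overlapped widely. The 4 motifs searched, on both strands, are bound by factors of neural and pluripotent cells. The SOX core ACAATG matched the Ephb1 window once, at position -132 before the start, and matched 3 of the 18 windows of risen genes (16.7%), 0 of 6 windows of fallen genes and 10.7% of all windows. The SOX core ACAAAG was found in 2 of 18, 0 of 6 and 16.5%, the E-box CAGCTG in 2 of 18, 2 of 6 and 13%, and the octamer ATGCAAAT in 0 of 18, 0 of 6 and 1.6%. A match is a run of letters and not evidence of binding.

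The levels given from here on are normalized intensities: the array's processed intensity, scaled so that every array has the same 75th percentile. They are in arbitrary units and cannot be compared between genes, because probes differ in brightness. Values of a group are given as culture A and culture B, in that order. A change is a log2 difference between group means ± SE (n = 2 arrays per group throughout), with an adjusted p from limma over all 14773 genes, and it passed the test where that p was below 0.05. Where both arrays of a group were too dim, a change is written as at least N-fold: the mean of the brighter group over a stand-in for the dimmer one, which on each array is the lowest intensity well above background or the gene's own, whichever is higher. The 3 comparisons share arrays, so they are not independent of each other.

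The first comparison asks what 1 day in the neural plate condition changed. Of the 61 guidance genes tested, 22 were higher and 18 lower in NPC1 than in EpiSC, 40 in all or 65.6%, where 50.3% of all genes tested passed (21.3% higher and 29% lower). Changes of at least 2-fold were found in 12 of them, 7 higher and 5 lower, or 19.7%, against 8.33% of all genes (4.43% higher and 3.9% lower). Among the 7, Epha10 and Plxna4 cleared background on both arrays in the NPC groups only, so the filter favoured their direction. The median change was 0.12 among guidance genes and -0.05 among all genes. The count of lower genes was the weakest of these numbers: it was 11 with the authors' deposited value table and 11 with no filter on dim probes. Of all genes, 48.4% and 29.8% passed in either direction under these settings. The count also fell without either EpiSC culture, as did the share of all genes that passed.

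The second comparison asks what 2 days changed. In NPC2, 31 guidance genes were higher and 15 lower than in EpiSC, 46 in all or 75.4%, where 69% of all genes passed (28.3% higher and 40.7% lower). Those at least 2-fold changed numbered 27, or 44.3%, against 19.9% of all genes. The difference lay in the rising genes: 20 of the 61 (32.8%) were at least 2-fold higher, against 9.69% of all genes, while 7 (11.5%) were at least 2-fold lower, close to the 10.2% of all genes. Here 3 of the 20 were dim in EpiSC, and each was at least 2-fold higher also by its bound. These 3 entered the test only through groups where they were bright, so the filter favoured their direction. The median change was 0.31 among guidance genes and -0.10 among all genes. The median size of a change, without its sign, was 0.77 against 0.41. Over the second day alone, between NPC1 and NPC2, 23 rose and 15 fell, 38 in all or 62.3%, where 47.5% of all genes passed (20.8% and 26.6%). Of these, 16 rose (26.2%, against 4.72%) and 7 fell (11.5%, against 6.17%) by at least 2-fold. Sema3a and Unc5c, among the 16, entered the test only through NPC2, so the filter favoured their direction here too.

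**Figure D1:**
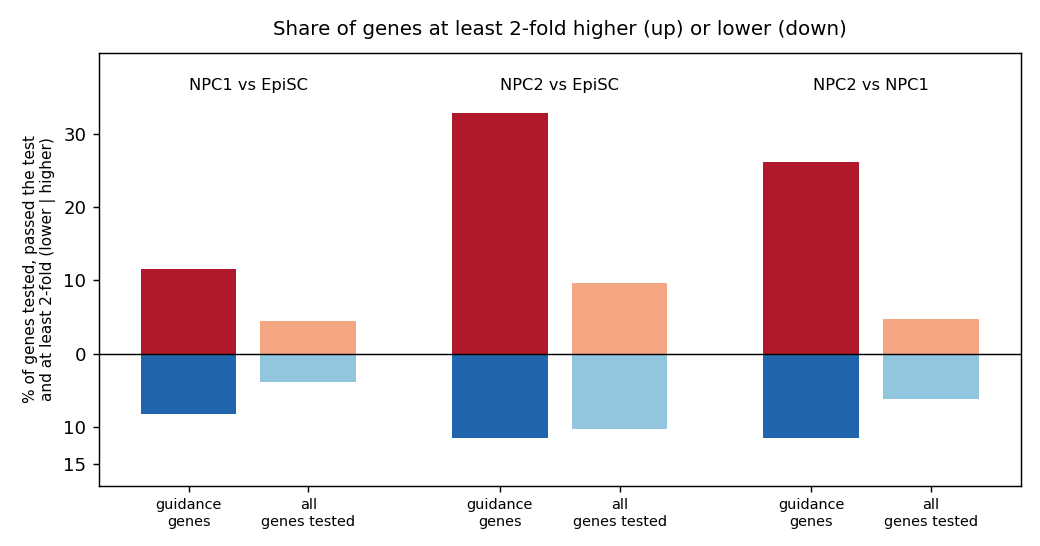
Share of the genes tested (%) that passed the test and were at least 2-fold higher (red bars, upward) or lower (blue bars, downward) in each of the 3 comparisons, for the 61 guidance genes (dark) and all 14773 genes (pale). In NPC2 against EpiSC 32.8% of guidance genes stand above the line and 11.5% below it, against 9.69% and 10.2% of all genes.

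How the split of higher and lower genes comes out depends on the scale. With the authors' deposited value table the median of all genes lay 0.12 higher in NPC1 against EpiSC and 0.22 higher in NPC2 against EpiSC than with the 75th percentile scale. The members then split 26 higher to 11 lower after 1 day and 40 to 10 after 2 days, where 48.4% and 68.1% of all genes passed in either direction. With quantile normalization they split 22 to 13 and 35 to 11, where 46.5% and 66.6% of all genes passed. With median scaling they split 17 to 21 after 1 day, where 55.1% of all genes passed.

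Ligands and receptors were also counted apart. Of 31 ligand genes tested, 13 were higher and 9 lower in NPC2 than in EpiSC; of 29 receptor genes, 18 were higher and 6 lower. Among all genes 28.3% were higher and 40.7% lower. In all, 22 ligand genes (71%) and 24 receptor genes (82.8%) passed, where 69% of all genes did. The ligand share was close to that of all genes. The difference between ligands and receptors was not tested. In the plot of all changes by family, 8 of 13 families held both genes that were higher and genes that were lower after 2 days.

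**Figure D2:**
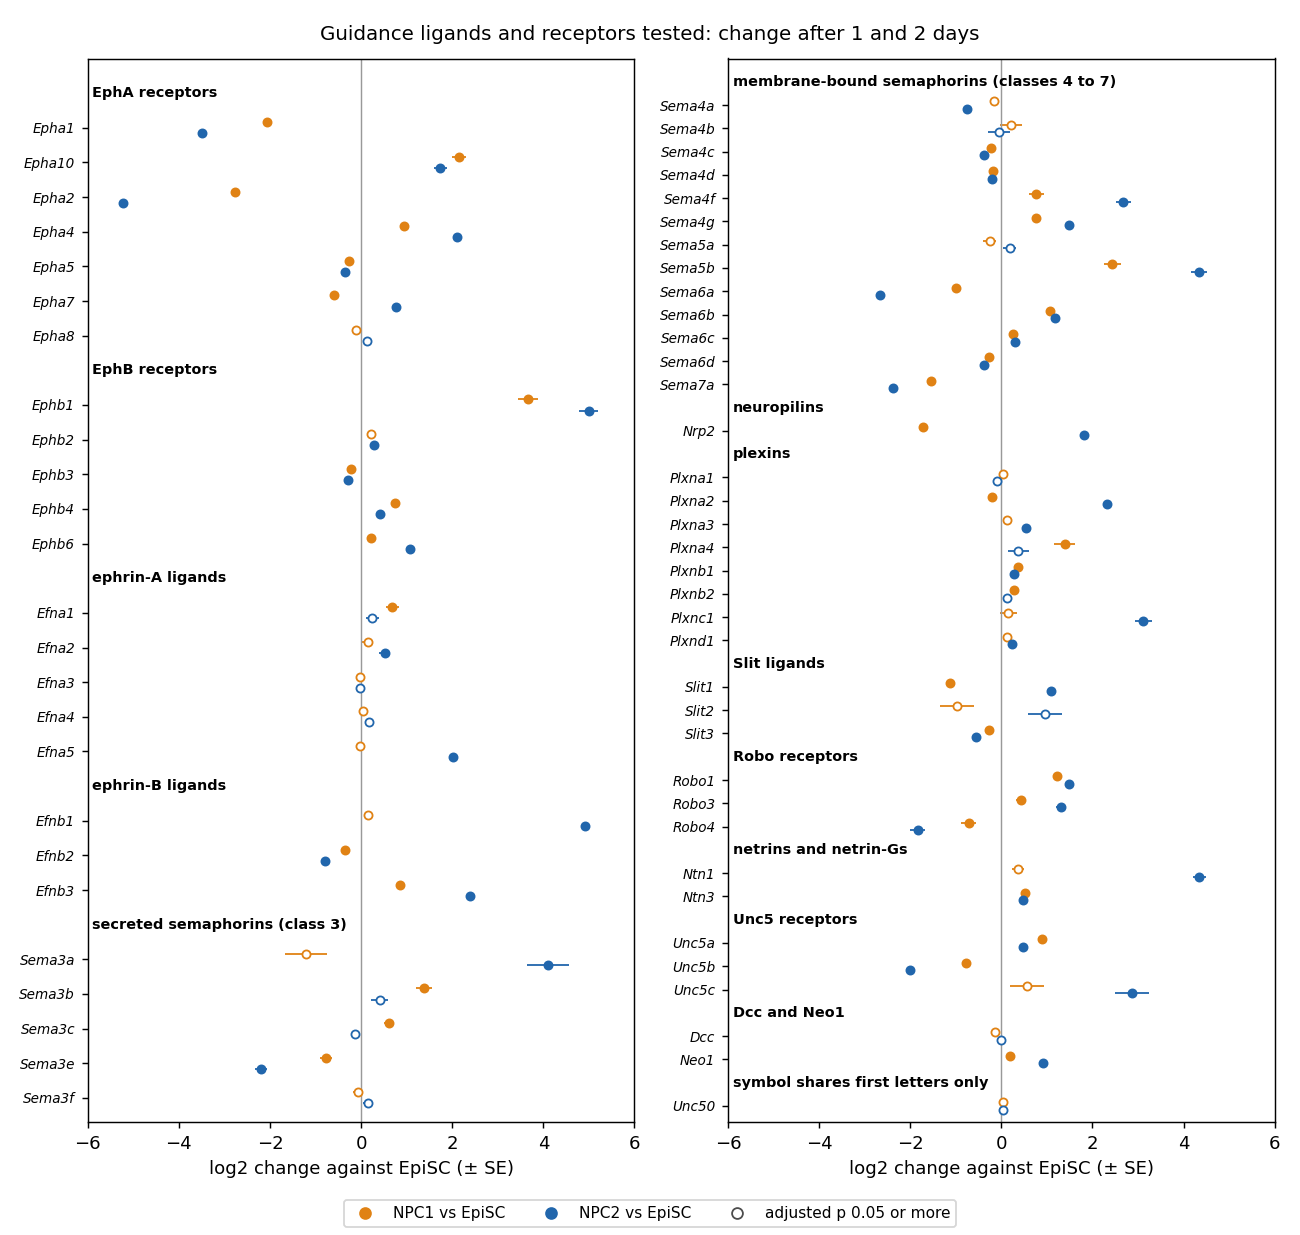
Log2 change ± SE of each of the 61 tested guidance genes in NPC1 (orange) and NPC2 (blue) against EpiSC (n = 2 arrays per group), by family; open circles have an adjusted p of 0.05 or more. Epha2 (-5.22) and Epha1 (-3.50) lie farthest to the left and Ephb1 (5.0) and Efnb1 (4.91) farthest to the right after 2 days.

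Eph receptors of the A class bind mainly the ephrin-A ligands, which hang on the membrane by a lipid anchor. Of 7 EphA genes tested, 2 rose and 4 fell after 1 day, where 21.3% of all genes rose and 29% fell. After 2 days 3 were higher and 3 lower, beside 28.3% and 40.7% of all genes. The largest falls of all guidance genes were found here. Epha2 gave intensities of 9854 and 10440 in EpiSC, 1529 and 1457 in NPC1 and 279 and 265 in NPC2. Each step lay far outside the spread of the duplicates, and no groups overlapped. Epha2 was lower by 6.8-fold after 1 day (log2 change -2.77 ± 0.059, adjusted p = 6.6e-05) and by 37.3-fold after 2 days (log2 change -5.22 ± 0.059, adjusted p = 5.86e-06). Its relative Epha1 gave 11850 and 12200 in EpiSC, 2786 and 3003 in NPC1 and 1022 and 1111 in NPC2. It fell on both days as well, without overlap, by 4.16-fold after 1 day and 11.3-fold after 2 days (log2 change -3.50 ± 0.067, adjusted p = 1.02e-05).

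Over 2 days 3 other EphA genes went up. Epha4, which also binds ephrin-B ligands and marks segments of the hindbrain, gave 54.1 and 59.9 in EpiSC, 106 and 112 in NPC1 and 254 and 234 in NPC2. Its 3 groups were ordered without overlap, and it was 4.28-fold higher after 2 days (log2 change 2.10 ± 0.078, adjusted p = 3.41e-05). Epha7, a receptor expressed in the developing nervous system, gave 246 and 262 in EpiSC, 162 and 173 in NPC1 and 461 and 404 in NPC2. It was lowest on both NPC1 arrays and highest on both NPC2 arrays: it fell on day 1 (log2 change -0.60 ± 0.085, adjusted p = 0.00448) and rose on day 2 (log2 change 1.37 ± 0.085, adjusted p = 0.000337). The fall rests on 1 of its 3 probes, since the 2 probes for another transcript changed by -0.22 and -0.15 without passing, and it was lost with the mean of the probes (adjusted p = 0.272). Epha10, which lacks an active kinase, was not well above background on either EpiSC array and gave 7.74 and 5.87 in EpiSC, 30.0 and 29.9 in NPC1 and 24.0 and 21.1 in NPC2. Both NPC groups lay above EpiSC. Epha10 was at least 3.2-fold higher in NPC1 and at least 2.4-fold higher in NPC2. It entered the test only through the NPC groups, so the filter favoured this direction and the bounds are given as sizes only. Normexp, a background correction that adds an offset, gave log2 changes of 0.40 and 0.22. Epha5 was slightly lower after 2 days (log2 change -0.35 ± 0.077, adjusted p = 0.0122), a call lost with quantile normalization and with the authors' value table. The second Epha5 probe was above background on 1 array only. Epha8 was not called against EpiSC on either day.

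EphB receptors bind ephrin-B ligands, which span the membrane. Of 5 EphB genes, 4 were higher and 1 lower after 2 days, beside 28.3% and 40.7% of all genes. Ephb1, which guides axons at the optic chiasm, gave 20.4 and 32.0 in EpiSC, 318 and 329.9 in NPC1 and 792 and 846 in NPC2. EpiSC cultures were the lowest and NPC2 cultures the highest, and the gene rose 12.7-fold on day 1 (log2 change 3.66 ± 0.21, adjusted p = 0.000408) and a further 2.53-fold on day 2 (log2 change 1.34 ± 0.21, adjusted p = 0.00658), or 32.0-fold in all (log2 change 5.0 ± 0.21, adjusted p = 5e-05). This rise and that of Efnb1 (4.91) were the largest of the guidance genes over 2 days, and they differed by less than the SE of Ephb1. The EpiSC arrays were dim, and with normexp the log2 change of Ephb1 was 2.01 after 1 day and 3.19 after 2 days, below the 4.67 of Efnb1 and the 3.55 of Ntn1 after 2 days. Ephb6, another receptor without kinase activity, gave 391 and 378 in EpiSC, 442 and 457 in NPC1 and 790.1 and 819.9 in NPC2. It was higher after 2 days (log2 change 1.07 ± 0.05, adjusted p = 6.27e-05), without overlap, but its second probe changed by only 0.16 (adjusted p = 0.613). Ephb4, best known from the vein side of blood vessels, gave 1341 and 1523 in EpiSC, 2443 and 2337 in NPC1 and 1892 and 1900 in NPC2. It was highest in NPC1, having risen on day 1 (log2 change 0.74 ± 0.075, adjusted p = 0.00169) and fallen on day 2 (log2 change -0.33 ± 0.075, adjusted p = 0.0188); the fall was found on both its probes, but was lost with the authors' value table and without any one of the NPC1 or NPC2 arrays (adjusted p up to 0.0786). Ephb2 and Ephb3 changed by less than 0.3 after 2 days, Ephb2 upward and Ephb3 downward, and each call was lost under at least 1 other scale.

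The ephrin ligands contrasted within each class. Among ephrin-B genes, Efnb1, which shapes craniofacial and neural boundaries, gave 303 and 311 in EpiSC, 333 and 347 in NPC1 and 8932 and 9523 in NPC2. EpiSC and NPC1 lay close together and both NPC2 arrays lay far above them. The difference on day 1 did not pass (log2 change 0.15 ± 0.055, adjusted p = 0.0833), while day 2 brought a 27.2-fold rise (log2 change 4.76 ± 0.055, adjusted p = 2.66e-05), and NPC2 stood 30.0-fold above EpiSC (log2 change 4.91 ± 0.055, adjusted p = 5.86e-06). Efnb3, a ligand of the ventral midline of the nervous system, gave 246 and 237 in EpiSC, 458 and 419.8 in NPC1 and 1202 and 1321 in NPC2. It rose on both days without overlap and was 5.22-fold higher in NPC2 (log2 change 2.38 ± 0.074, adjusted p = 2.11e-05). Efnb2, the ligand paired with Ephb4 in blood vessels, went the other way: it fell from 2267 and 2281 in EpiSC to 1318 and 1301 in NPC2 (log2 change -0.80 ± 0.043, adjusted p = 9.44e-05).

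Among the 5 ephrin-A genes, 1 rose by 2-fold or more, where 9.69% of all genes did over 2 days. Efna5, a repellent ligand that helps to map visual axons, gave 1416 and 1332 in EpiSC, 1357 and 1358 in NPC1 and 5510 and 5535 in NPC2. As for Efnb1, the day 1 change was near 0 (log2 change -0.017 ± 0.05, adjusted p = 0.799), and the rise came on day 2 (log2 change 2.02 ± 0.05, adjusted p = 5.59e-05). Efna2 was moderately higher in NPC2 (log2 change 0.52 ± 0.12, adjusted p = 0.0151), a call lost without either EpiSC array or NPC2 culture A (adjusted p up to 0.0717). Efna1 was higher in NPC1 (log2 change 0.69 ± 0.14, adjusted p = 0.0151), a call lost without NPC1 culture A (adjusted p = 0.0726), and Efna3 and Efna4 passed in no comparison.

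Secreted semaphorins of class 3 signal through neuropilins and class A plexins. Of 7 genes on the array 5 were tested, and only Sema3a was higher after 2 days. Sema3a, the classical repellent of sensory and cortical axons, was not well above background on any EpiSC or NPC1 array and gave 6.23 and 9.0 in EpiSC, 5.17 and 2.05 in NPC1 and 133 and 125 in NPC2. Both NPC2 arrays lay far above the other 4. Sema3a was at least 13.8-fold higher in NPC2 than in EpiSC and at least 14.7-fold higher than in NPC1. It entered the test only through NPC2, so the filter favoured this direction and the bounds are given as sizes only. Its second probe gave the same direction, but it too was above background on 2 arrays only and is no further support. With normexp the 2-day log2 change was 1.34. Sema3e, which signals through Plxnd1 without a neuropilin, gave 727 and 747 in EpiSC, 493 and 381 in NPC1 and 161 and 160.4 in NPC2. It fell on both days without overlap and was 4.59-fold lower in NPC2 (log2 change -2.20 ± 0.13, adjusted p = 0.000118).

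Both remaining class 3 genes that changed did so on day 1 and went back on day 2. Sema3b, known as a floor plate cue, gave 488 and 630.4 in EpiSC, 1652 and 1251 in NPC1 and 733 and 738 in NPC2. It was highest in NPC1, 2.59-fold above EpiSC (log2 change 1.37 ± 0.18, adjusted p = 0.00357), and lower again in NPC2 (log2 change -0.97 ± 0.18, adjusted p = 0.0105), although the fall was lost without either NPC2 array (adjusted p up to 0.051). Sema3c, which steers heart-forming neural crest cells, gave 540.4 and 561 in EpiSC, 919 and 763 in NPC1 and 520.4 and 489 in NPC2. The NPC1 arrays lay above the other 4, with a rise on day 1 (log2 change 0.61 ± 0.1, adjusted p = 0.00753) and a fall on day 2 (log2 change -0.73 ± 0.1, adjusted p = 0.00403). The level in NPC2 was not distinguishable from that in EpiSC for Sema3b (log2 change 0.41 ± 0.18, adjusted p = 0.0987) or for Sema3c (log2 change -0.13 ± 0.1, adjusted p = 0.314), and Sema3f was called in no comparison.

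Semaphorins of classes 4 to 7 went both ways: of 13 genes tested, 5 were higher and 6 lower after 2 days, beside 28.3% and 40.7% of all genes. The largest rise belonged to Sema5b, a membrane-bound repellent with thrombospondin repeats, which gave 21 and 14.7 in EpiSC, 91.1 and 99.9 in NPC1 and 337 and 375 in NPC2. Its groups were ordered without overlap, with a 5.42-fold rise on day 1 (log2 change 2.44 ± 0.18, adjusted p = 0.000736) and 20.2-fold after 2 days (log2 change 4.34 ± 0.18, adjusted p = 4.51e-05), and its second probe gave 4.34 after 2 days. With normexp the log2 change was 0.95 on day 1 and 2.36 after 2 days. Sema4f gave 21 and 14.8 in EpiSC, 30.9 and 29.1 in NPC1 and 112 and 113 in NPC2. It rose mainly on day 2 and stood 6.39-fold above EpiSC (log2 change 2.68 ± 0.17, adjusted p = 0.000159), or 1.01 on the log2 scale with normexp; the smaller day 1 rise (log2 change 0.77 ± 0.17, adjusted p = 0.018) was 0.20 with normexp and was lost without either NPC1 array (adjusted p up to 0.0812).

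Further rises in these classes were smaller. Sema4g gave 58.1 and 51.7 in EpiSC, 98.2 and 88.9 in NPC1 and 156 and 151 in NPC2. Its groups stepped up without overlap on both days, to 2.8-fold (log2 change 1.49 ± 0.083, adjusted p = 0.000109). Sema6b, a ligand of class A plexins, gave 119.8 and 108 in EpiSC, 235 and 246 in NPC1 and 251 and 268 in NPC2. Nearly all of its rise came on day 1 (log2 change 1.08 ± 0.073, adjusted p = 0.000567), and the change on day 2 did not pass (log2 change 0.11 ± 0.073, adjusted p = 0.278).

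Other genes of this family fell. Sema6a, a transmembrane ligand of Plxna2 and Plxna4, gave 2448 and 2243 in EpiSC, 1180 and 1169 in NPC1 and 372 and 373 in NPC2. It fell on both days without overlap, to a level 6.29-fold below EpiSC (log2 change -2.65 ± 0.058, adjusted p = 1.15e-05). Sema7a, anchored by a lipid and bound by Plxnc1 and integrins, gave 472 and 475 in EpiSC, 166 and 158 in NPC1 and 94.4 and 87.4 in NPC2. It also fell on both days, by 2.92-fold and then to 5.21-fold below EpiSC (log2 change -2.38 ± 0.058, adjusted p = 1.32e-05). Sema4a was lower in NPC2 (log2 change -0.76 ± 0.058, adjusted p = 0.000282). Sema4c, Sema4d and Sema6d were lower by 0.20 to 0.39 after 2 days, but their calls did not hold with the authors' value table, where Sema4d had a change of 0.02. The second Sema6d probe was above background on 3 arrays only and was not tested. Sema4b and Sema5a were called in no comparison, and Sema6c was slightly higher (log2 change 0.31 ± 0.054, adjusted p = 0.00546).

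**Figure D3:**
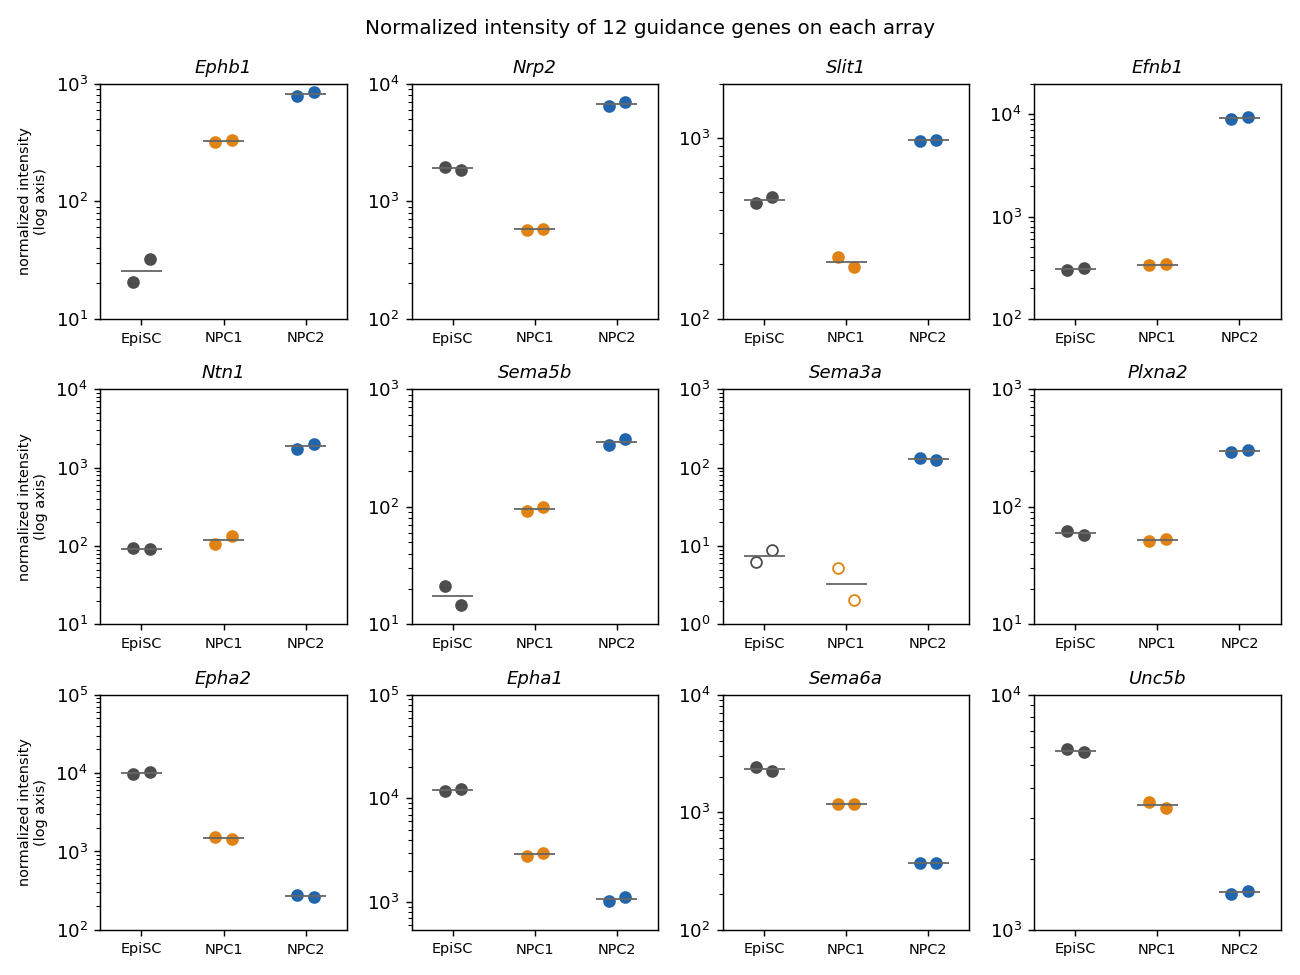
Normalized intensity (log axis, each panel with its own range) of 12 guidance genes on each of the 6 arrays; points are single arrays, open where the gene was not well above background, and short lines are group means on the log scale. Duplicates lie close together, Nrp2 and Slit1 are lowest in NPC1, Efnb1, Ntn1, Sema3a and Plxna2 are high in NPC2 alone, and the bottom row falls step by step.

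The receptors of the semaphorins changed as well. Neuropilin 2, encoded by Nrp2, binds class 3 semaphorins and gave 1965 and 1855 in EpiSC, 569 and 585 in NPC1 and 6437 and 6972 in NPC2. NPC1 arrays were the lowest and NPC2 arrays the highest: the gene fell 3.31-fold on day 1 (log2 change -1.73 ± 0.063, adjusted p = 0.000132) and rose 11.6-fold on day 2 (log2 change 3.54 ± 0.063, adjusted p = 3.37e-05), ending 3.51-fold above EpiSC (log2 change 1.81 ± 0.063, adjusted p = 2.82e-05). A second probe for another transcript of Nrp2 gave -1.75 on day 1 and 3.76 on day 2. Neuropilin 1 (Nrp1), which also binds vascular growth factor, was well above background on NPC2 culture B alone and was not tested.

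Plexins are the signalling receptors of semaphorins. Of 8 tested, 5 were higher and 0 lower after 2 days, where 28.3% of all genes were higher and 40.7% lower, 69% in all. Plxnc1, the receptor of Sema7a, gave 21.8 and 17.0 in EpiSC, 24.5 and 18.7 in NPC1 and 156 and 179.5 in NPC2. EpiSC and NPC1 overlapped and both NPC2 arrays lay above them, 8.68-fold over EpiSC (log2 change 3.12 ± 0.19, adjusted p = 0.000129), or 1.43 on the log2 scale with normexp. Its ligand Sema7a had fallen over the same days. Plxna2, which binds Sema6a and pairs with neuropilins, gave 62.3 and 57.2 in EpiSC, 51.0 and 52.8 in NPC1 and 294 and 301 in NPC2. It was 4.98-fold higher in NPC2 (log2 change 2.32 ± 0.06, adjusted p = 1.4e-05). The slight fall on day 1 (log2 change -0.20 ± 0.06, adjusted p = 0.0426) was 0.005 with normexp, and its call was lost without any one of the 6 arrays.

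Plxna4, which pairs with neuropilins for Sema3a, gave 11.8 and 7.55 in EpiSC, 26.6 and 23.2 in NPC1 and 11.3 and 13.3 in NPC2; EpiSC culture B was not above background. It was highest in NPC1, above EpiSC (log2 change 1.39 ± 0.23, adjusted p = 0.00756) and above NPC2 (log2 change -1.02 ± 0.23, adjusted p = 0.0202). This rests on 1 probe and should be read with care, because the second Plxna4 probe was above background on no array. The day 2 fall was lost when any one NPC1 or NPC2 array was left out (adjusted p up to 0.0929), and with normexp the rise was 0.33 and the fall -0.28. Plxna3 was higher in NPC2 (log2 change 0.55 ± 0.052, adjusted p = 0.000595). The other calls in the family were rises of less than 0.4. Plxnb1 was higher than in EpiSC in both NPC groups (log2 change 0.28 ± 0.058, adjusted p = 0.00962 in NPC2), the 2-day call being lost without NPC2 culture B (adjusted p = 0.052). Plxnb2 was higher in NPC1 only (log2 change 0.28 ± 0.067, adjusted p = 0.0236), a call lost in 5 of 16 alternative analyses, median scaling among them. Plxnd1, counted among the 5 higher plexins, was called after 2 days only (log2 change 0.24 ± 0.078, adjusted p = 0.042); the call was lost in 8 of 16, median scaling and the mean of its probes among them, and its second probe changed by 0.017. Plxna1 passed in no comparison.

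Slit proteins are secreted and repel cells that carry Robo receptors. Slit1 gave 435 and 474 in EpiSC, 221 and 195 in NPC1 and 965 and 974 in NPC2. As with Nrp2, the NPC1 arrays were the lowest and the NPC2 arrays the highest: it fell 2.19-fold on day 1 (log2 change -1.13 ± 0.081, adjusted p = 0.000662), rose 4.68-fold on day 2 (log2 change 2.23 ± 0.081, adjusted p = 9.48e-05) and ended 2.13-fold above EpiSC (log2 change 1.09 ± 0.081, adjusted p = 0.000255). Slit2 was dim, with 25.9 and 28.7 in EpiSC, 10.8 and 17.8 in NPC1 and 38.8 and 71.8 in NPC2, and 1 NPC1 array below background. Its order was the same, but only the rise on day 2 passed (log2 change 1.93 ± 0.37, adjusted p = 0.0119), and with normexp that rise was 0.55. Slit3 went down by a smaller amount over 2 days (log2 change -0.56 ± 0.071, adjusted p = 0.00158).

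Robo1, the main Slit receptor of commissural axons, gave 304 and 291 in EpiSC, 717 and 678 in NPC1 and 831 and 845 in NPC2. It rose on day 1 to 2.34-fold (log2 change 1.23 ± 0.053, adjusted p = 0.000193) and little more on day 2 (log2 change 0.27 ± 0.053, adjusted p = 0.0134), a step lost without either NPC2 array. Robo3, which keeps axons from being repelled before they cross the midline, gave 53.2 and 42.5 in EpiSC, 66.0 and 62.7 in NPC1 and 116 and 119.8 in NPC2. It was 2.48-fold higher after 2 days (log2 change 1.31 ± 0.11, adjusted p = 0.000448), without overlap. Robo4, the Robo of blood vessel cells, gave 152 and 189 in EpiSC, 95.9 and 110.2 in NPC1 and 42.7 and 52.5 in NPC2. It fell instead, to 3.57-fold below EpiSC (log2 change -1.84 ± 0.16, adjusted p = 0.000434); its day 1 fall was lost without EpiSC culture B or NPC1 culture A (adjusted p up to 0.0831). Of the endothelial markers, Pecam1 did not pass in any comparison and lay between 33.0 and 39.8 on all arrays, and the 4 markers summed to 44.3 to 61.4 on 5 arrays and 116 on NPC2 culture A. Robo2 was above background on 1 NPC1 array only and was not tested.

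Netrin 1, encoded by Ntn1 and secreted by the floor plate, gave 93.2 and 90.6 in EpiSC, 105 and 134 in NPC1 and 1739 and 2008 in NPC2. Both NPC2 arrays lay far above the other 4. It was 20.3-fold higher in NPC2 than in EpiSC (log2 change 4.35 ± 0.14, adjusted p = 2.24e-05), most of it gained on day 2 (log2 change 3.98 ± 0.14, adjusted p = 8.6e-05). The day 1 change did not pass on this probe (log2 change 0.36 ± 0.14, adjusted p = 0.0845), but did on its second probe (0.70, adjusted p = 0.0132 over all probes). Ntn3 was modestly higher from day 1 on (log2 change 0.48 ± 0.059, adjusted p = 0.0015). The other 4 netrin and netrin-G genes were below background on all arrays.

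The netrin receptors showed no common direction. Dcc, the attractive receptor, gave values between 11770 and 13790 on all 6 arrays and passed in no comparison (log2 change -0.015 ± 0.07, adjusted p = 0.864 in NPC2). Its level should be read with care, because the 2 other Dcc probes were above background on no array. Neo1, which also binds the repulsive guidance molecules, was higher after 2 days (log2 change 0.90 ± 0.049, adjusted p = 9.89e-05). Unc5b, a repulsive receptor also found on blood vessel tips, gave 5855 and 5721 in EpiSC, 3487 and 3306 in NPC1 and 1427 and 1470 in NPC2. It fell on both days without overlap, to 4.0-fold below EpiSC (log2 change -2.00 ± 0.051, adjusted p = 1.4e-05).

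Unc5c was dim in both earlier groups and gave 2.85 and 6.02 in EpiSC, 6.86 and 5.41 in NPC1 and 30.5 and 29.7 in NPC2. Only the NPC2 arrays were above background, at least 3.21-fold over EpiSC and at least 3.44-fold over NPC1. As for Sema3a, the gene entered the test only through NPC2, so these bounds are given as sizes only. The second Unc5c probe went the same way, but it too was above background on 2 arrays only and is no further support. With normexp the 2-day log2 change was 0.46. Unc5a gave 286 and 272 in EpiSC, 530.4 and 504 in NPC1 and 403 and 377 in NPC2. It peaked in NPC1, with a rise on day 1 (log2 change 0.89 ± 0.061, adjusted p = 0.000588) and a partial fall on day 2 (log2 change -0.41 ± 0.061, adjusted p = 0.0052), and stayed above EpiSC (log2 change 0.48 ± 0.061, adjusted p = 0.00164). Unc50, taken only for its first letters, passed in no comparison (log2 change 0.029 ± 0.065, adjusted p = 0.709 in NPC2).

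The 13 genes without a test were Epha3, Epha6, Nrp1, Ntn4, Ntn5, Ntng1, Ntng2, Plxnb3, Robo2, Sema3d, Sema3g, Unc5cl and Unc5d. For 11 of them no probe was above background on any array, and for Nrp1 and Robo2 it was 1 array. Among the tested genes, 13 had several probes that passed the filter, and in no comparison did probes of 1 gene pass in opposite directions.

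The timing of the changes was described by their 2 steps, from EpiSC to NPC1 and from NPC1 to NPC2. Both steps passed for 28 of the 61 genes, the first alone for 12, the second alone for 10 and neither for 11. The genes that passed neither step made up 18%, where 31.8% of all genes did. Rises on both days were found for 10 genes (16.4%, against 9.4% of all genes), among them Ephb1, Sema5b, Efnb3, Epha4 and Sema4f. The day 1 calls of Neo1, Robo3 and Ephb6, also among the 10, were each lost with median scaling. Falls on both days were found for 9 genes (14.8%, against 12.5%), among them Epha2, Epha1, Sema6a, Sema7a and Unc5b. Both steps of Slit3, also among the 9, were lost with the authors' value table. A rise on day 2 with no call on day 1 was found for 9 genes (14.8%, against 8.05%), among them Efnb1, Ntn1, Efna5, Plxnc1 and Sema3a. Sema3a and Unc5c, both in this count, entered the test only through NPC2, so the filter favoured that pattern. A rise on day 1 with no call on day 2 was found for 7 genes (11.5%, against 7.62%), among them Epha10 and Sema6b. Epha10 entered the test only through the NPC groups, where the filter again favoured a rise. Of the rest, 5 fell on day 1 alone (8.2%, against 13.1%): Epha5, Ephb3, Sema4c, Sema4d and Sema6d. Their log2 changes were small (-0.18 to -0.27), and each call was lost with quantile normalization and with the authors' value table. Sema4a was the single gene that fell on day 2 alone (1.64%, against 9.83%).

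For 9 genes (14.8%, against 7.65% of all genes) the 2 steps passed in opposite directions. Of these, 4 dipped in NPC1 and rose in NPC2 (3.39% of all genes did): Epha7, Nrp2, Plxna2 and Slit1. The day 1 fall of Plxna2 was lost in 11 of 16 alternative analyses, and that of Epha7 with the mean of its probes. The other 5 peaked in NPC1 (4.26% of all genes did): Plxna4, Sema3b, Sema3c, Ephb4 and Unc5a. A direct test of whether the NPC1 level lies off the midpoint between EpiSC and NPC2, on the log2 scale, passed for 31 guidance genes (50.8%, against 29.5% of all genes), 15 above the midpoint (15.5% of all genes) and 16 below (14%). Fewer guidance genes passed without NPC1 culture A, and so did fewer of all genes. A value below the midpoint is not a dip: Efnb1, with no call on day 1, lay at -2.31. The summed intensity of 6 neuron markers was also highest in NPC1, at 11940 to 12250 in EpiSC, 17520 to 19070 in NPC1 and 14800 to 15430 in NPC2, and bright probes, above all those of Stmn2 and Snap25, make up most of it. Tubb3, Elavl3 and Stmn2 rose on day 1 and fell on day 2, Snap25 and Map2 rose on day 1 with no call on day 2, and Dcx fell on day 1 (log2 change -1.03 ± 0.22, adjusted p = 0.0149). Their part in the NPC1 peaks was not tested.

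**Figure D4:**
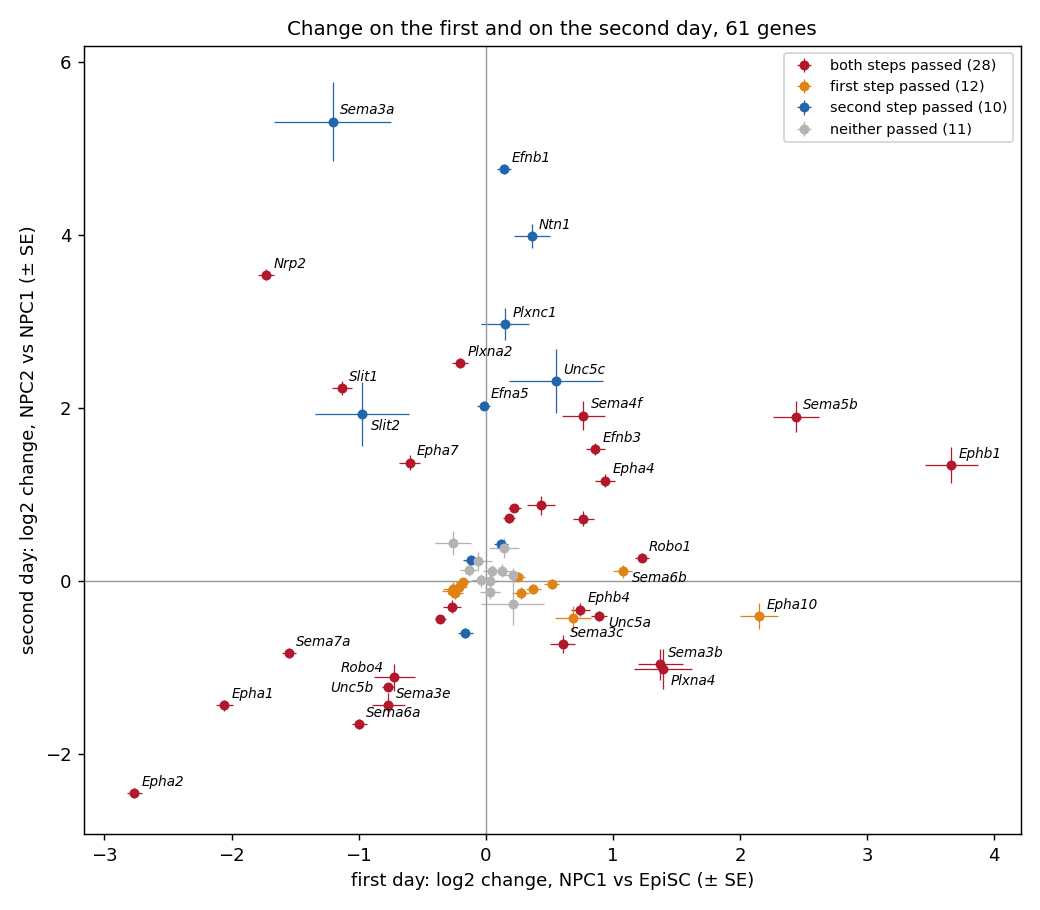
Log2 change ± SE on the first day (horizontal axis, NPC1 against EpiSC) and on the second day (vertical axis, NPC2 against NPC1) for the 61 guidance genes, coloured by which step passed the test. Nrp2 and Slit1 lie in the upper left quadrant (down, then up), Ephb1 and Sema5b in the upper right, Plxna4 and Sema3b in the lower right, and Epha2 and Epha1 in the lower left.

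The members can also be read as pairs of ligand and receptor. In the Eph system, both Ephb1 and its ligands Efnb1 and Efnb3 were higher in NPC2, while Efnb2 was lower; Epha4 and Efna5 were higher, while Epha1 and Epha2 were lower. In the class 3 system Sema3a, Nrp2 and Plxna2 were higher in NPC2 than in both earlier groups. Sema3e fell on both days, and Sema3b, Sema3c and Plxna4 were highest in NPC1. Sema3f was called in no comparison, and Nrp1, the other neuropilin, was not tested. Sema3a entered the test only through NPC2. For Slits and Robos, Slit1, Robo1 and Robo3 were higher in NPC2 than in EpiSC, Slit3 and Robo4 were lower and Slit2 was not called. For netrins, Ntn1, Ntn3, Neo1, Unc5a and Unc5c were higher, Unc5b was lower and Dcc was not called. These are RNA levels of whole cultures, and they do not show which cells hold a ligand and which its receptor.

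Other genes of the pathway were read from 2 further lists. Of 19 partners at the membrane or outside the cell, 13 were tested, and 6 were higher (46.2%) and 3 lower (23.1%) in NPC2 than in EpiSC; the 69.2% that passed in all is the share found among all genes (69%). Flrt1 and Flrt3, adhesion proteins that bind Unc5 receptors, were both higher in NPC2 (Flrt1 by 20.8-fold and Flrt3 by 13.2-fold; log2 change 3.72 ± 0.081, adjusted p = 1.15e-05), and Flrt3, like Efnb1, rose on day 2 alone. Rgma, a ligand of Neo1, was 4.37-fold higher (log2 change 2.13 ± 0.061, adjusted p = 1.74e-05). Dscam, a netrin co-receptor counted among the 6, was above background on 4 arrays only, with 8.46 and 7.99 in EpiSC. It entered the test through the brighter NPC groups, so the filter favoured its direction against EpiSC. Between NPC1 and NPC2 Dscam also rose (log2 change 0.77 ± 0.14, adjusted p = 0.0097). Nrcam, an adhesion protein that partners neuropilins, was lower (log2 change -0.94 ± 0.12, adjusted p = 0.00177). All 41 cytoplasmic effectors on the list were tested: 24 were higher (58.5%) and 8 lower (19.5%) after 2 days, beside 28.3% and 40.7% of all genes. The largest rises were those of Srgap3, a GTPase regulator bound by Robo receptors (log2 change 3.81 ± 0.15, adjusted p = 3.66e-05), and of Dpysl4 (log2 change 3.36 ± 0.081, adjusted p = 1.3e-05) and Dpysl3 (log2 change 2.02 ± 0.054, adjusted p = 1.46e-05), which act downstream of semaphorins. Srgap3 was dim in EpiSC (28.7 and 21.5), as was Flrt1 (22.6 and 32.4), and the sizes of their rises were not read with normexp. Vasp, which extends actin filaments, was lower (log2 change -1.13 ± 0.055, adjusted p = 7.07e-05).

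Markers of other cell types were read on the same arrays. Of 6 fibroblast markers, 4 were higher and 1 lower in NPC2 than in EpiSC, beside 28.3% and 40.7% of all genes. Their sum was 2898 to 3041 in EpiSC, 3804 to 3923 in NPC1 and 4748 to 4991 in NPC2. In NPC1 against EpiSC 1 was higher and 2 were lower, beside 21.3% and 29% of all genes. Col1a1 and Twist2 fell, and Thy1 rose from 1145 and 1213 to 2472 and 2553. The rise of the sum in NPC1 is that of Thy1. Pdgfra and Postn were above background on the NPC2 arrays alone, as were Sema3a and Unc5c. Pdgfra and Postn thus entered the test only through NPC2, and the filter favoured their direction in the count of 4. Of 4 neural crest markers, Sox10, Tfap2a and Ets1 were higher and Foxd3 lower (log2 change -4.09 ± 0.2, adjusted p = 7.54e-05). Endoderm markers fell (4 of 4), and of the 3 tested mesoderm markers 2 fell and 1 rose. These 2-day counts also stand beside 28.3% higher and 40.7% lower among all genes. Afp, an endoderm marker, was above background on 2 arrays only and was bright in EpiSC, so the filter favoured its fall. The part of these cell types in the changes of the guidance genes was not tested.

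The changes of at least 2-fold stood firmest. Of 75 such values that passed, over the 3 comparisons and the midpoint test, 71 kept their side of the threshold in every alternative analysis, and the 4 exceptions were the midpoint values of Ephb1, Slit2 and Plxna4 and the day 2 fall of Plxna4. Of all 155 values that passed, 110 kept it. The alternative that needs a gene to be above background on all 6 arrays left out Epha10, Sema3a, Unc5c, Plxna4 and Slit2. Their values were therefore not tried there. Epha10, Sema3a and Unc5c also entered the test only through groups where they were bright, so their kept calls are no further support. Sizes were less stable than calls for dim genes: beside those given above, normexp made the 2-day log2 change 0.81 for Robo3, -1.07 for Robo4 and 0.95 for Sema4g, and the day 2 change 1.62 for Plxna2.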

How the data were processed

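Per the file headers, the authors used Agilent Feature Extraction 10.10.1.1, giving each spot a processed intensity (background-subtracted, linear, not normalized between arrays) and flags for signal well above background. The deposited value table holds these intensities times 1 constant per array, between 2.10 and 2.42, whose basis is not given here; it served as an alternative. Control spots and outlier spots were left out and spots of a probe averaged. Genes were named by RefSeq accession from the GRCm38.p6 table: of 28372 probes with an accession, 26744 matched 1 symbol. Log2 intensities were scaled to the 75th percentile of each array and tested. A gene took its brightest probe among those well above background on both arrays of a group. limma 3.58.1 in R 4.3.3 (lmFit, eBayes, two-sided) fitted the 3 groups of all 6 arrays together (residual df 3, prior df 1.88), with Benjamini-Hochberg adjustment over 14773 genes and a threshold of 0.05, and the steps were tested on simulated data. Every array is on 1 slide and 1 scan, so no batch was tested. Normexp, listed for the mean signal, was run on the median signal with an offset of 50, since the mean column is not used here. Values on every array are given for Ephb1, Nrp2 and Slit1, for genes that passed with at least 2-fold change in a comparison and for genes whose 2 steps passed in opposite directions. The members and lists were chosen with earlier results of these data known.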

Additional observations from a re-analysis of the deposited data

Results flagged for a closer look

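For 9 guidance genes the day 1 change and the day 2 change passed the limma test in opposite directions. Their NPC1 level relative to the midpoint of EpiSC and NPC2 (log2 units, n = 2 arrays per group) is given as a size only: it is computed from the same 2 changes that chose the genes, so its sign was fixed by the choice and it is no further support. It was -2.63 for Nrp2, -1.68 for Slit1, -1.36 for Plxna2 and -0.98 for Epha7, which were lowest in NPC1. The day 1 fall of Plxna2 (-0.20, adjusted p = 0.0426) was lost in 11 of 16 alternative analyses, and that of Epha7 with the mean of its probes (adjusted p = 0.272). Among the genes highest in NPC1 it was 1.21 for Plxna4, 1.17 for Sema3b, 0.67 for Sema3c, 0.65 for Unc5a and 0.54 for Ephb4. The value of Plxna4 was 0.31 with normexp, and its second probe was above background on no array. The day 2 falls of Plxna4 and Ephb4 were lost without any one NPC1 or NPC2 culture, and that of Sema3b without either NPC2 culture (adjusted p up to 0.0929, 0.0786 and 0.051).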

How the results depend on the processing

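Each array was left out in turn, and the scale, background correction, filter and choice of probe were changed one at a time; the cause of a shift was not tested. Leaving out 1 array gave 28 to 36 genes called in NPC1 against EpiSC (18 to 20 higher, 10 to 16 lower), 40 to 46 in NPC2 against EpiSC (28 to 31 higher, 12 to 15 lower), 32 to 38 in NPC2 against NPC1 (21 to 25 higher, 11 to 16 lower) and 20 to 27 off the midpoint (7 to 13 above, 13 to 15 below). The lower genes of NPC1 numbered 11 with the authors' value table and 11 with no filter on dim probes, against 18. Of all genes, 48.4% and 29.8% passed in either direction in these settings, against 50.3%. Leaving out any 1 array also lowered the share of all genes that passed in NPC1 against EpiSC and off the midpoint. Single values changed sign 88 times over all genes and alternatives; in 83 of these the value passed in neither analysis and was at most 0.286 in size, as for Dcc on day 1 with quantile normalization (0.01). In the other 5 the value passed in at least 1 of the analyses: Plxna2 on day 1 with normexp (0.005, adjusted p = 0.949), the midpoint value of Sema5b with normexp (-0.23, adjusted p = 0.0123), and after 2 days Dcc with quantile normalization (0.26, adjusted p = 0.0307) and Efna3 (0.19, adjusted p = 0.0447) and Sema4d (0.023, adjusted p = 0.72) with the authors' value table. With normexp 39 of 155 called values were more than 1.5 times smaller, among them values of Epha10, Sema3a, Unc5c and Sema4f; signal over background limits the size of such folds. No effect shared by same-letter cultures was seen: their deviations correlated at 0.03, -0.002 and -0.05 between groups. With 1 difference per group, this cannot tell whether same-letter cultures were handled together. With the letter as a replicate block, 37, 47 and 41 genes were called in the 3 comparisons and 30 off the midpoint. Of all genes, 46.5%, 66.8% and 43.8% were then called in the 3 comparisons and 24.3% off the midpoint.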
